A study of Mus musculus with 2 samples.

Results

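Cells make superoxide and hydrogen peroxide as by-products of respiration, and a set of enzymes removes them. Superoxide dismutases turn superoxide into hydrogen peroxide, and catalase, the glutathione peroxidases and the peroxiredoxins reduce the peroxide. Glutathione and thioredoxin supply the electrons for the glutathione peroxidases and peroxiredoxins and are recycled with NADPH. The transcription factor NRF2, held back by KEAP1, switches on many of these genes in somatic cells. The oocyte stores glutathione during maturation and uses it after fertilisation, when the sperm nucleus is unpacked. The mRNA of 43 such genes, taken by symbol from a list of glutathione, thioredoxin, peroxiredoxin, superoxide and NRF2 genes, was followed among the 36227 genes of the deposited table. Of the 43 genes, 40 had counts and 21 were expressed, meaning at least 10 CPM in at least 1 library, where CPM is the count of a gene per 1000000 counts of its library, against 5714 expressed genes in all.

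The libraries came from ovulated oocytes at metaphase II of outbred ICR mice, 16 weeks old. The slimming mothers had become obese by 12 weeks of age and then spent 4 weeks in cages with an enriched environment, and the control mothers, also obese by then and labelled as fed a standard diet, stayed in normal cages. From each group 3 mice gave 3 oocytes each, and the 9 oocytes were lysed in 1 tube and made into 1 library. The comparison asks how the mothers' slimming relates to the mRNA stored in their oocytes.

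The slimming library held 20947962 counts and the control library 20242289 counts. A count of 0 allows up to 3 counts, which is 0.143 CPM in slimming oocytes and 0.148 CPM in control oocytes. With 1 library per group no test could be made, no value has a replicate check, and each difference describes these libraries and not the conditions. Ratios are slimming over control on the log2 scale after TMM scaling, and their 95% intervals are exact Clopper-Pearson intervals that cover counting error only. Amplification by PCR without molecular identifiers adds error that these intervals leave out. In a pool, fewer oocytes with an mRNA and less of it per oocyte cannot be told apart. All 10 oocyte markers were detected in both libraries and summed to 99276 CPM in slimming oocytes and 101088 CPM in control oocytes, most of it from Gdf9 and H1foo. Their ratios differed among themselves, at log2 -0.06 for Gdf9 and -0.12 for H1foo but 1.03, 0.94 and 0.81 for the zona pellucida genes Zp3, Zp1 and Zp2. Zp3 had 2450 CPM in slimming oocytes and 1172 CPM in control oocytes, a larger ratio than that of any expressed defence gene. Of the 15 cumulus and granulosa markers 3 were detected in slimming oocytes and 7 in control oocytes, with sums of 34.8 CPM in slimming oocytes and 47.8 CPM in control oocytes. The aromatase gene Cyp19a1 held 34.5 CPM of this sum in slimming oocytes and 39.2 CPM in control oocytes. In slimming and control oocytes, Inha had 0 and 63 counts, Hsd3b1 1 and 72, and Cyp11a1 0 and 17. Inhba had 0 and 12 counts and Tnfaip6 0 and 8, while Has2 went the other way with 5 and 2. Ptgs2, Ptx3, Star, Amh, Fshr, Lhcgr, Foxl2 and Hsd17b1 had no entry in either. The 13 immune markers summed to 7.92 CPM in slimming oocytes and 15.8 CPM in control oocytes. The 8 oviduct markers summed to 6.21 CPM in slimming oocytes and 12.5 CPM in control oocytes.

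Most of the expressed defence genes had a higher level in slimming oocytes. Of the 21 genes, 16 had a log2 ratio above 0, against 51.4% of all expressed genes. The median log2 ratio of the 21 genes was 0.41, against 0.02 for all expressed genes, and single genes lay between -0.77 and 0.98. The shortest of 5 transcript length groups, described below, held 13 of the 21 genes, and its expressed genes had a median of 0.18. At least 1.5-fold higher were 5 of the 21 genes, against 10.3% of all expressed genes, and 1 gene was at least 1.5-fold lower, against 7.16% of all expressed genes. No defence gene among the 21 was at least 2-fold apart, where 2.73% of all expressed genes were higher and 1.94% lower by that much. The counting interval lay wholly above a ratio of 1 for 15 of the 21 genes, against 37.7% of all expressed genes, and wholly below it for 4, against 35.1%. Gstz1 and Prdx6 passed the limit of 10 CPM in slimming oocytes alone. The other 19 genes passed it in both, and among them 14 lay above the median of all expressed genes, with 5 of the 19 higher and 1 lower by 1.5-fold or more. Of all genes that passed it in both libraries, 7.57% were higher and 4.84% lower by that much.

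**Figure D1:**
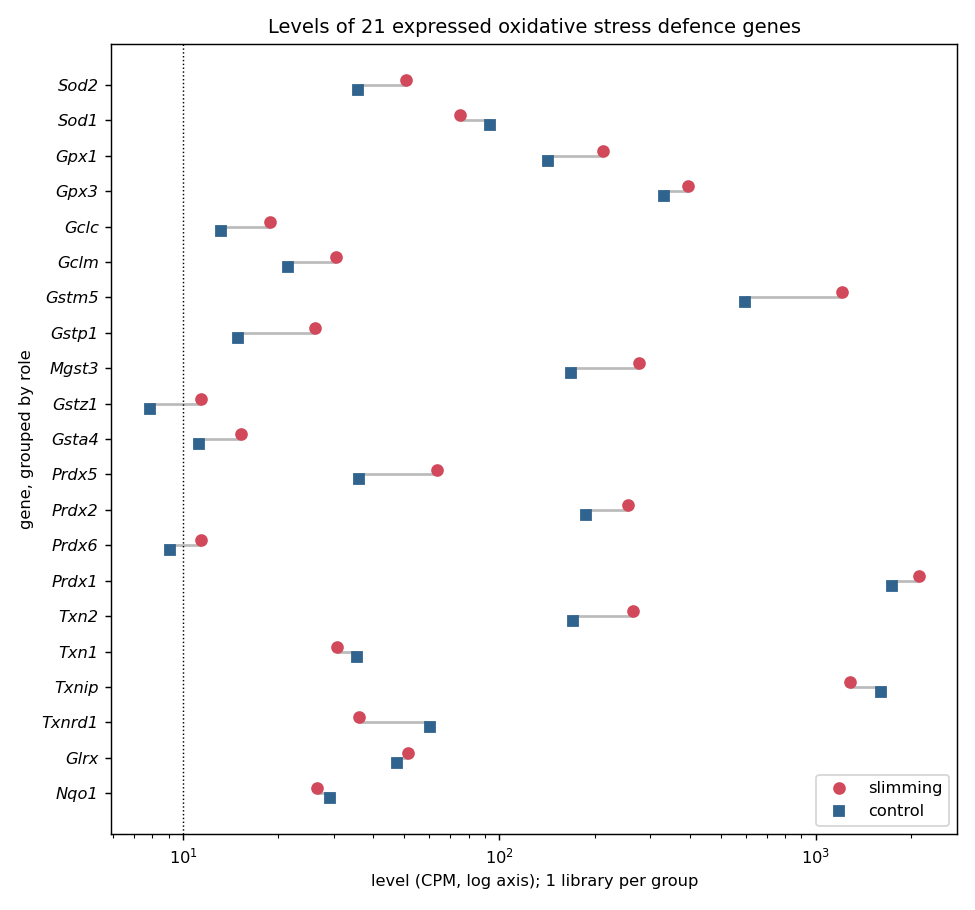
Level of each of the 21 expressed defence genes in CPM (log axis), grouped by role, in slimming oocytes (circles) and control oocytes (squares). The dotted line marks 10 CPM; Gstm5 shows the widest gap, at 1207 CPM in slimming oocytes and 599 CPM in control oocytes.

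**Figure D2:**
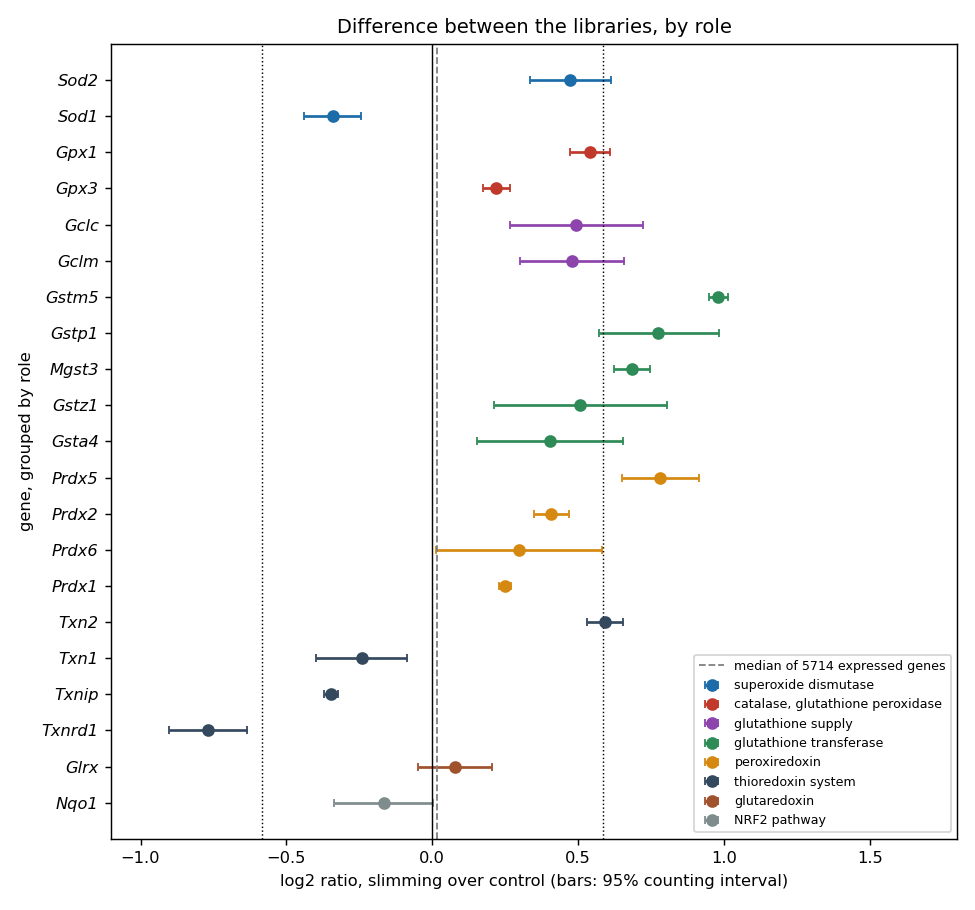
Log2 ratio of slimming over control for the same 21 genes with 95% counting intervals, coloured by role. Dotted lines mark 1.5-fold and the dashed line the median of all expressed genes, 0.02; the 5 glutathione transferases lie right of it and 3 of the 4 thioredoxin genes left of it.

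Together the 43 genes held 0.649% of the slimming counts (exact 95% interval 0.645 to 0.652) and 0.539% of the control counts (0.536 to 0.543). Prdx1, Txnip and Gstm5 made up 71.1% of this in slimming oocytes and 73.2% in control oocytes. Per kilobase of the longest coding transcript, Gstm5 stood at 1277 CPM, Prdx1 at 924 CPM and Txnip at 455 CPM in slimming oocytes. In the control library Prdx1 stood at 761 CPM per kilobase, Gstm5 at 633 and Txnip at 567. By this measure the order of Gstm5 and Prdx1 differed between the libraries, and Txnip followed them in both. In CPM not divided by length, the order was Prdx1, Txnip and Gstm5 in both libraries. The order per kilobase thus rests on the transcript length used, and the transcript form present was not determined. Next per kilobase came Mgst3, with 251 CPM per kilobase in slimming oocytes and 153 in control oocytes. The secreted peroxidase Gpx3 had 248 in slimming oocytes and 208 in control oocytes. This pair was close in slimming oocytes and apart in control oocytes.

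Glutathione transferases join glutathione to reactive compounds. The 5 expressed members of this group were all higher in slimming oocytes, where 51.4% of all expressed genes had a log2 ratio above 0. All 5 have short transcripts, and expressed genes of their length group had a median log2 ratio of 0.18, as described below. Gstz1 among them passed the limit of 10 CPM in slimming oocytes alone, so its direction was set by that limit. The transferases under 10 CPM, given below, went either way. Gstm5 (ENSMUSG00000004032, chromosome 3), of the mu class, had 25284 counts (1207 CPM) in slimming oocytes and 12116 counts (599 CPM) in control oocytes. Its log2 ratio was 0.98 (interval 0.95 to 1.01), 1.97-fold higher, at percentile 97.1 of all expressed genes. Among genes with a mean of 300 to 1000 CPM, 5% had a log2 ratio above 0.46, and Gstm5 was among them. The antisense gene 4933431E20Rik, which covers 14.4% of the 50-base windows of Gstm5, had 1177 counts in slimming oocytes and 1089 in control oocytes, and strand is not stated for the counting. Mgst3, a microsomal transferase, had 275 CPM in slimming oocytes and 168 CPM in control oocytes (log2 0.68, interval 0.62 to 0.75). Gstp1, of the pi class, had 26.1 CPM in slimming oocytes against 14.9 CPM in control oocytes (log2 0.78, interval 0.57 to 0.98). Gstp1 shares 62.3% of its 50-base windows with other genes, mainly its twin Gstp2, which had 48 counts in slimming oocytes and 47 in control oocytes. Gsta4, which clears lipid peroxidation products, had 15.2 CPM in slimming oocytes against 11.3 CPM in control oocytes. Gstz1, also a tyrosine breakdown enzyme, had 11.4 CPM in slimming oocytes against 7.85 CPM in control oocytes. Both were under 1.5-fold apart, at log2 ratios of 0.40 for Gsta4 and 0.51 for Gstz1. The exons of Gstz1 overlap Pomt2 and Gm6566 on the opposite strand.

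In somatic cells NRF2 acts on transferase, glutathione and thioredoxin genes through the antioxidant response element, whose core was searched as TGACNNNGC on both strands in the 250 bases before the start. RefSeq promoters of build GRCm38.p6 were matched for 36 of the 43 genes, and 7 of them (19.4%) held the letters, against 11.5% of the 27025 genes in the promoter table. These 7 were Gclm, Gstm5, Mgst1, Nfe2l2, Prdx1, Sod1 and Txnrd1. Gstm5, Gclm and Prdx1 were higher in slimming oocytes, and the other 4 were lower, at log2 ratios of -0.34 for Sod1, -0.77 for Txnrd1, -0.78 for Nfe2l2 and -2.40 for Mgst1. The promoters of the 5 expressed ones are printed to show the same letters beside mRNAs of either direction. The windows are chr3:107895604-107895853, chr3:122245307-122245556, chr4:116685349-116685598, chr16:90220512-90220761 and chr10:82858956-82859205, each on the plus strand, and capitals mark the matched letters.
Gstm5: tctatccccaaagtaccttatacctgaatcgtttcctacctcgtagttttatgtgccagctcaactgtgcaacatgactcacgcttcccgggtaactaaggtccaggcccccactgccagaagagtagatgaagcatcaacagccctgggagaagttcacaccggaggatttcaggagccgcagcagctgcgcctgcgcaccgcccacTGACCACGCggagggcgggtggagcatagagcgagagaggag
Gclm: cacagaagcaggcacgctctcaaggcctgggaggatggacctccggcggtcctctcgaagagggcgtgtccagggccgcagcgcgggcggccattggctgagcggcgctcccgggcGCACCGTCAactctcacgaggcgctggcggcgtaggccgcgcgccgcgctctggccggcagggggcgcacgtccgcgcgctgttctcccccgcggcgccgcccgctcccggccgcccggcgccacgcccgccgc
Prdx1: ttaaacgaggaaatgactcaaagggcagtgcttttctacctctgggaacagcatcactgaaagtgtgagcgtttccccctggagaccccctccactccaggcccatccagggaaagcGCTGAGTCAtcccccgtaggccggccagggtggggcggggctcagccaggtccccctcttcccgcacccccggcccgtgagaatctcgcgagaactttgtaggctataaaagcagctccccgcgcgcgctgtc
Sod1: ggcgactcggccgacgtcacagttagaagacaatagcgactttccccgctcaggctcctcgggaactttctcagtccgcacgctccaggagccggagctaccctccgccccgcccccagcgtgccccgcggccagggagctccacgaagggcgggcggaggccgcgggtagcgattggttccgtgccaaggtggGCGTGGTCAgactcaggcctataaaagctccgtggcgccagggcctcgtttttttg
Txnrd1: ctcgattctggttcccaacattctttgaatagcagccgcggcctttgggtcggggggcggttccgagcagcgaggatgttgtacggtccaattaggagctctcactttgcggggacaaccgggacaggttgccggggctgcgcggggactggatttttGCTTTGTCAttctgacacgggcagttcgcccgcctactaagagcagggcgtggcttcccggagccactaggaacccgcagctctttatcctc
Counted from the start, the match began at position -42 in Gstm5, -134 in Gclm, -133 in Prdx1, -56 in Sod1 and -92 in Txnrd1. Txnrd1 has 3 starts in the table, and 1 of them holds the letters. In Prdx1 the letters overlap TGANTCA, the core of the AP-1 site. The match is a description of these letters and not of a bound site.

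Of the genes of glutathione supply and the glutathione peroxidases, the expressed Gclc, Gclm, Gpx1 and Gpx3 were higher, each by less than 1.5-fold. Gclc, the catalytic subunit of the rate-limiting enzyme of glutathione synthesis, had 396 counts (18.9 CPM) in slimming oocytes and 266 counts (13.1 CPM) in control oocytes. Gclm, its modifier subunit, had 640 counts (30.6 CPM) in slimming oocytes and 434 counts (21.4 CPM) in control oocytes. Exons of Gclm overlap the pseudogene Gm6061 on the same strand and Gm17494 on the opposite strand. The subunits differed alike, at log2 ratios of 0.49 (interval 0.27 to 0.72) and 0.48 (0.30 to 0.66). The count ratio of Gclc to Gclm was 0.619 in slimming oocytes and 0.613 in control oocytes. Gpx1, the main cytosolic glutathione peroxidase, had 212 CPM in slimming oocytes and 143 CPM in control oocytes (log2 0.54, interval 0.47 to 0.61). Gpx3 had 395 CPM in slimming oocytes against 332 CPM in control oocytes (log2 0.22, interval 0.17 to 0.27). Gpx3 is made by many somatic cells. The cumulus and granulosa markers given above had a lower sum in slimming oocytes, and their part in the level of Gpx3 was not tested. Of the remaining genes, Gss, which completes glutathione synthesis, had 16 counts in slimming oocytes and 0 in control oocytes. With the floor of 3 counts in place of 0 it was 5.04-fold higher, and its counting interval began at log2 1.87. The exons of Gss overlap Acss2 on the opposite strand. Gsr, which recycles oxidised glutathione, had 19 and 18 counts and catalase (Cat) 31 and 29 counts, in slimming and control oocytes.

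Gpx4, which reduces lipid peroxides, had 21 counts in slimming oocytes and 19 counts in control oocytes. Of its 50-base windows 61.7% also occur in its pseudogene Gpx4-ps2, so its counts are uncertain. Gpx7 and Gpx8, peroxidases of the endoplasmic reticulum, had 0 counts each in slimming oocytes, set beside 11 and 4 counts in control oocytes. With the floor of 3 counts in place of 0, Gpx7 was 3.88-fold and Gpx8 1.41-fold lower. These folds leave out the counting error of the other count. The counting interval ended at log2 -1.41 for Gpx7 and at 0.52 for Gpx8, where it includes a ratio of 1. Of 1003 genes with 11 to 16 counts in their higher library, 132 had 0 in slimming oocytes, as Gpx7 did, and 71 had 0 in control oocytes, as Gss did. The ratio of Gss, which rests on the 0.5 added to each count, lay above the 95th percentile of genes of its level, and that of Gpx7 lay within their range.

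All 4 expressed peroxiredoxins were higher in slimming oocytes, where 51.4% of all expressed genes had a log2 ratio above 0. Of these 4, Prdx6 passed the limit of 10 CPM in slimming oocytes alone, so its direction was set by that limit. Prdx1, a cytosolic form and the gene with the most counts of the 43, had 44396 counts (2119 CPM) in slimming oocytes and 35345 counts (1746 CPM) in control oocytes (log2 0.25, interval 0.23 to 0.27). Prdx2, also cytosolic, had 254 CPM in slimming oocytes and 188 CPM in control oocytes (log2 0.41, interval 0.35 to 0.47). It shares 23.8% of its windows with other genes, and its exons overlap Junb and Rnaseh2a on the opposite strand. Prdx5, found in mitochondria and peroxisomes, had 63.3 CPM in slimming oocytes against 36.1 CPM in control oocytes (log2 0.78, interval 0.65 to 0.91), the largest difference among the expressed peroxiredoxins. Trmt112, on the opposite strand, covers 29.7% of the windows of Prdx5 and had 340 counts in slimming oocytes and 359 in control oocytes. Prdx6, which also acts on phospholipids, had 11.4 CPM in slimming oocytes against 9.09 CPM in control oocytes (log2 0.30, interval 0.01 to 0.58). Prdx4, the form of the endoplasmic reticulum, was below 10 CPM, with 56 counts in slimming oocytes and 24 in control oocytes (log2 1.12, interval 0.43 to 1.90). The mitochondrial Prdx3 had 8 counts in slimming oocytes and 14 in control oocytes, and Srxn1, which repairs over-oxidised peroxiredoxins, had no entry in either.

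Annotated copies bear on the size of some of these ratios. Gm7204, a Prdx1 copy, had 5499 counts in slimming oocytes and 2943 in control oocytes, and adding it gave Prdx1 a log2 ratio of 0.30. Tdpx-ps1 and Prdx2-rs3, copies of Prdx2, had 976 counts together in slimming oocytes and 505 in control oocytes, and adding them gave Prdx2 a ratio of 0.47. With Gstp2 added, the ratio of Gstp1 was 0.69. These sums were formed after the counts were seen.

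The thioredoxin system was divided, with the mitochondrial Txn2 higher and the cytosolic Txn1 and Txnrd1 lower in slimming oocytes. Txn2, the mitochondrial thioredoxin, had 5534 counts (264 CPM) in slimming oocytes and 3468 counts (171 CPM) in control oocytes, a log2 ratio of 0.59 (interval 0.53 to 0.66). Txn1, the cytosolic thioredoxin, had 642 counts (30.6 CPM) in slimming oocytes and 718 counts (35.5 CPM) in control oocytes, a log2 ratio of -0.24 (interval -0.40 to -0.09). Txnrd1 (ENSMUSG00000020250, chromosome 10), the cytosolic reductase that recycles thioredoxin, had 756 counts (36.1 CPM) in slimming oocytes and 1218 counts (60.2 CPM) in control oocytes. It was 1.70-fold lower (log2 -0.77, interval -0.90 to -0.64), at percentile 3.92 of all expressed genes, and the single expressed member at least 1.5-fold lower. Txnip, which binds and inhibits thioredoxin, had 1287 CPM in slimming oocytes and 1602 CPM in control oocytes (log2 -0.35, interval -0.37 to -0.32). An antisense gene that shares 18.4% of its windows, Gm15441, had 23 counts in slimming oocytes and 19 in control oocytes. The mitochondrial reductase Txnrd2 had 29 counts in slimming oocytes and 27 in control oocytes.

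The expressed superoxide dismutases also differed in direction. Sod2, the mitochondrial manganese enzyme, had 1064 counts (50.8 CPM) in slimming oocytes and 725 counts (35.8 CPM) in control oocytes (log2 0.47, interval 0.34 to 0.61). Sod1, the cytosolic copper and zinc enzyme, had 1578 counts (75.3 CPM) in slimming oocytes and 1891 counts (93.4 CPM) in control oocytes (log2 -0.34, interval -0.44 to -0.24). The extracellular Sod3 had no entry in either library. Gm8566, a copy that shares 23.1% of the windows of Sod1, had 1463 counts in slimming oocytes and 1243 in control oocytes. With it added, the log2 ratio of Sod1 was -0.12 (interval -0.20 to -0.05).

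Ratios of genes within a library do not depend on how the libraries are scaled. The count ratio of Sod2 to Sod1 was 0.674 in slimming oocytes and 0.383 in control oocytes, 1.76-fold higher (95% interval of the odds ratio 1.57 to 1.97), and 1.51-fold higher (1.36 to 1.68) with Gm8566 counted as Sod1. The count ratio of Txn2 to Txn1 was 8.62 in slimming oocytes and 4.83 in control oocytes, 1.78-fold higher (1.59 to 2.00). The count ratio of Prdx5 to Prdx1 was 0.0299 in slimming oocytes and 0.0207 in control oocytes, 1.45-fold higher (1.32 to 1.59), although both genes were higher in slimming oocytes. These pairs were chosen after their values were seen, and the intervals cover counting error only. Some other genes did not divide by compartment in this way. The mitochondrial Prdx3 had 8 counts in slimming oocytes and 14 in control oocytes (interval -2.35 to 0.46), and Txnrd2 29 and 27. The cytosolic Gpx1 and Prdx2 were higher in slimming oocytes, at log2 ratios of 0.54 and 0.41.

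Of the 4 genes of the NRF2 pathway only Nqo1 was expressed, and Nqo1, Nfe2l2 and Keap1 had lower levels in slimming oocytes. Nqo1, a quinone reductase, had 557 counts (26.6 CPM) in slimming oocytes and 591 counts (29.2 CPM) in control oocytes, a log2 ratio of -0.17, and its interval of -0.34 to 0.00 reached a ratio of 1. Nfe2l2, which encodes NRF2, had 87 counts (4.15 CPM) in slimming oocytes and 142 counts (7.02 CPM) in control oocytes (log2 -0.78, interval -1.19 to -0.39). Keap1, its inhibitor, whose exons overlap the antisense gene Gm16754, had 51 counts (2.43 CPM) in slimming oocytes and 95 counts (4.69 CPM) in control oocytes (log2 -0.97, interval -1.50 to -0.47). Both lay within the spread of genes with a mean of 1 to 10 CPM, of which 90% had ratios between -1.78 and 1.67. Hmox1, the inducible haem oxygenase, had 6 counts in slimming oocytes and 0 in control oocytes. With the floor of 3 counts in place of 0 it was 1.89-fold higher, and its interval began at log2 0.15. Among the glutaredoxins, which reduce mixed disulfides with glutathione, Glrx had 51.4 CPM in slimming oocytes and 47.6 CPM in control oocytes (log2 0.08, interval -0.05 to 0.21). Glrx2 and Glrx3 had 6 and 7 counts in slimming oocytes, against 1 and 10 counts in control oocytes.

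Of the transferases under 10 CPM, Gsto1, of the omega class, had 80 counts in slimming oocytes and 107 in control oocytes (log2 -0.50, interval -0.94 to -0.07), and Gstt2, of the theta class, had 65 counts in slimming oocytes against 48 in control oocytes. Mgst1, a second microsomal transferase, had 8 counts in slimming oocytes and 42 in control oocytes (log2 -2.40, interval -3.78 to -1.37). Gstm1 had 0 counts in slimming oocytes and 14 in control oocytes. With the floor of 3 counts in place of 0 it was 4.94-fold lower, and its interval ended at log2 -1.81. Gstm4 had 8 counts in slimming oocytes against 5 in control oocytes. Gstm2 had no entry in either library. Mgst1 and Gstm1 thus went against Gstm5, and both lay below the range that holds 90% of the genes of their level. The ratio of Gstm1 rests on the 0.5 added to its count of 0. Gstm1 also shares 23.1% of its windows with 5 other genes, so its counts are uncertain. The cumulus, granulosa and immune markers given above had lower sums in slimming oocytes as well. Their part in the counts of Mgst1 and Gstm1 was not tested.

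**Figure D3:**
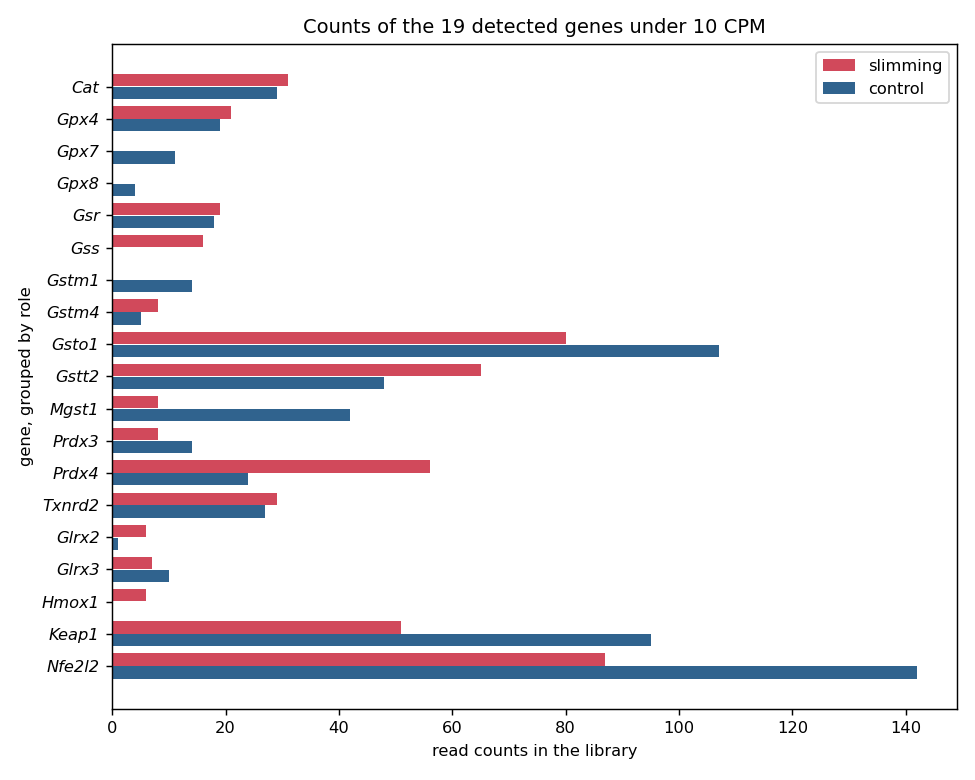
Read counts of the 19 defence genes that had counts but stayed under 10 CPM, in slimming oocytes (upper bar of each gene) and control oocytes (lower bar). Nfe2l2, Keap1, Gsto1 and Mgst1 are lower and Prdx4 and Gss higher in slimming oocytes; no bar means a count of 0.

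Set against all genes of similar level, 3 of the 21 expressed genes (Gstm5, Mgst3 and Prdx5) lay above the 95th percentile of their level band and 1 (Txnrd1) below the 5th percentile, where 10% of genes lie outside by construction. The other 17, Gstp1 and Txn2 among them, lay within.

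**Figure D4:**
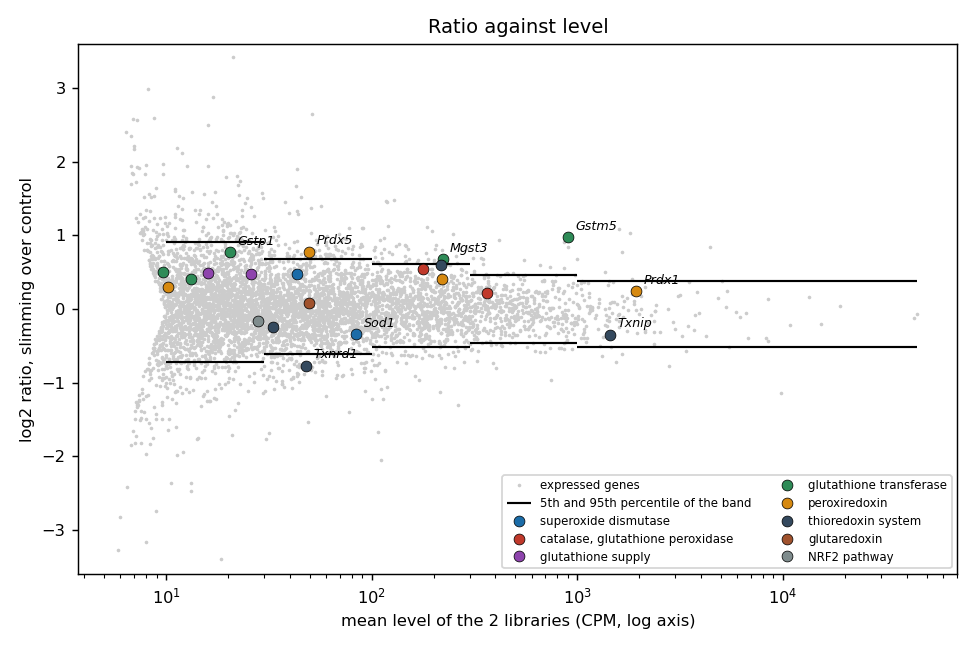
Log2 ratio against mean level in CPM (log axis) for all expressed genes (grey) and the 21 defence genes (coloured by role). Black lines mark the 5th and 95th percentile in each of 5 level bands; Gstm5 lies above the upper line of its band, 0.46, and Txnrd1 below the lower line of its band, -0.61.

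Transcript length moved with the ratio. Of 5 equal groups of expressed genes by length, the shortest had a median log2 ratio of 0.18 and the longest -0.09. The shortest group held 13 of the 21 defence genes, whose median there was 0.41. With the median of the length group subtracted from each gene, the median of the 21 genes was 0.24 and 3 genes (Gstm5, Gstp1 and Prdx5) were at least 1.5-fold higher. After this step 8.6% of all expressed genes were at least 1.5-fold higher. Sod2 and Gclm, in the group of the longest transcripts, both stood at 0.56, and Sod1 and Txn1, in the shortest group, at -0.52 and -0.42. Glrx turned to -0.10.

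**Figure D5:**
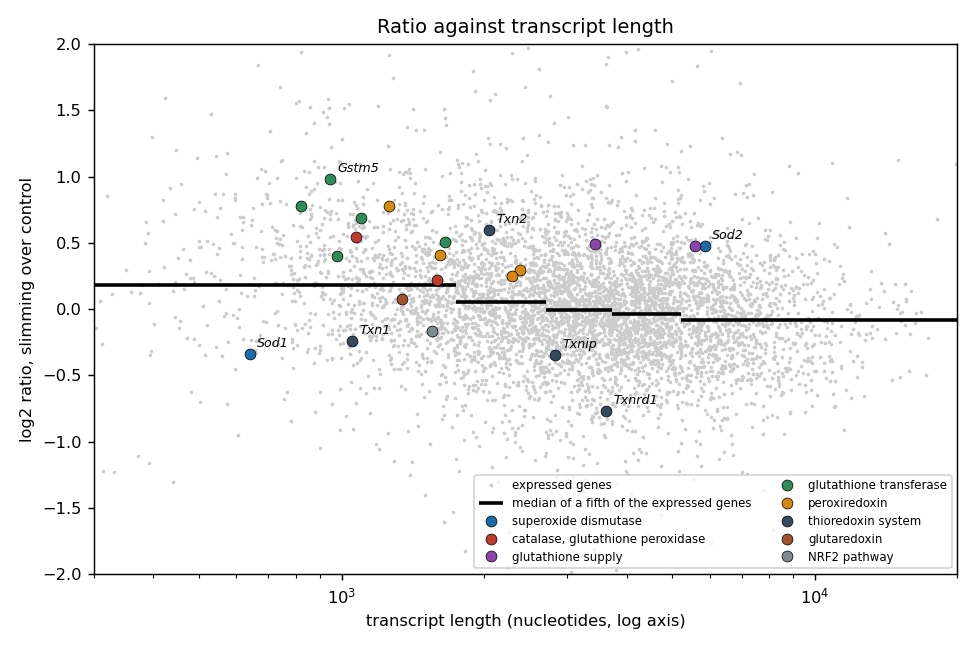
Log2 ratio against transcript length in nucleotides (log axis) for expressed genes (grey) and the 21 defence genes (coloured by role); genes beyond the axes are not drawn. Black lines give the median of each of 5 equal length groups, between 0.18 for the shortest and -0.09 for the longest.

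The other glutathione, thiol, NADPH and NRF2 network genes had medians near 0. Of 27 other glutathione genes 6 were expressed, with a median log2 ratio of 0.03, and 1 was at least 1.5-fold higher: Gpx6, a peroxidase known from the olfactory epithelium, with 29.1 CPM in slimming oocytes and 15.5 CPM in control oocytes (log2 0.88, interval 0.68 to 1.08). Of 20 other thiol and selenoprotein genes 9 were expressed, with a median of 0.00, and 1 was at least 1.5-fold higher: Msrb3, a methionine sulfoxide reductase, with 26.4 CPM in slimming oocytes and 11.0 CPM in control oocytes (log2 1.22, interval 1.00 to 1.46). Of 16 genes of NADPH supply 8 were expressed, with a median of -0.06 and none at least 1.5-fold apart. Of 23 other genes of the NRF2 network 11 were expressed, with a median of 0.10. Among them Ftl1, the ferritin light chain, had 30.3 CPM in slimming oocytes and 15.2 CPM in control oocytes (log2 0.96), and Fth1, the heavy chain, 31.7 CPM in slimming oocytes and 49.1 CPM in control oocytes (log2 -0.66). Ftl1 shares 90.6% of its windows with other genes, so its counts are uncertain.

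Of 13 sources of superoxide 1 was expressed, Noxo1, an organiser of NADPH oxidase, with 41.1 CPM in slimming oocytes and 28.9 CPM in control oocytes (log2 0.48, interval 0.33 to 0.63). Noxo1 shares 44.8% of its windows with another gene, so its counts are uncertain. Xanthine dehydrogenase (Xdh), named after its value was seen, had 0 counts in slimming oocytes and 33 in control oocytes. With the floor of 3 counts in place of 0 it was 11.6-fold lower, and its interval ended at log2 -3.16. Other sources under 10 CPM went either way. Duox2 had 50 counts in slimming oocytes and 23 in control oocytes (log2 1.02, interval 0.30 to 1.82). Nox1 had 129 and 115 counts and Noxa1 4 and 0, in slimming and control oocytes, while Nox4 had 11 and 18 and Nox3 0 and 1. The phagocyte oxidase genes Cybb, Cyba and Ncf4 had 4, 0 and 0 counts in slimming oocytes and 11, 5 and 3 counts in control oocytes. The sum of the 13 immune markers given above was lower in slimming oocytes as well, where 3 were detected, against 9 in control oocytes. Fcer1g and Tyrobp had 0 counts in slimming oocytes and 62 and 57 counts in control oocytes. Cd68 had 79 counts in slimming oocytes and 103 in control oocytes, while Laptm5 went the other way, with 86 and 75. The part of immune cells in the counts of the oxidase genes was not tested. Markers of red blood cells, which hold much catalase and Prdx2, summed to 1.24 CPM in slimming oocytes and 0.840 CPM in control oocytes, and the haemoglobin genes Hba-a1, Hba-a2, Hbb-bs and Hbb-bt had no entry in either.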

How the data were processed

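Per the labels' protocols, mRNA of each oocyte pool was primed with an oligo(dT) stretch of 24 bases, tailed, amplified for 18 and then 14 PCR cycles and sequenced on a SOLiD 4 instrument. The submitters' processing notes name the mm9 genome build. Aligner, counter, strand use and handling of multiply matching reads were not given in the sources used here. Raw read counts per Ensembl gene were deposited by the authors, with the group of each column per the file headers; a blank was read as 0. The log2 ratio scaled by the authors was deposited too, and recomputing it from the counts by total-count scaling, with 0.5 in place of 0, gave a largest gap of 7.1e-15.

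Symbols came from GENCODE vM21 (GRCm38), which named 16913 of 18017 genes with counts. Lengths are those of the longest coding transcript there, and shared sequence is the share of its 50-base windows found exactly in transcripts of other genes. Ratios used 0.5 added to each count and TMM factors (edgeR 4.0.16, R 4.3.3), which were 1.01 for the slimming and 0.989 for the control library; DESeq2 1.42.0 gave an alternative scaling. Python 3.11.15 with pandas 2.3.3 and scipy 1.17.1 did the rest, and figures used matplotlib 3.10.9. The ratio and interval steps were tested on simulated Poisson counts. These hold no PCR or pooling error, so the test checks the computation and not the width of the intervals for these libraries.

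The 43 genes, the lists, the limit of 10 CPM and the 1.5-fold rule were chosen with earlier results of these data known. Every member is accounted for. Of the other lists, expressed genes at least 1.5-fold apart are named, up to 4 a list. Alternatives covered scaling, the low-count filter, the added count, the fold, the summary, transcript length and shared sequence. 1 gene of the superoxide source list is not reported here.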

Additional observations from a re-analysis of the deposited data

How the results depend on the processing

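Total-count scaling, DESeq2 size factors and 5 added to each count left the counts at 5 higher, 1 lower and 16 above the median. The median log2 ratio was 0.44, 0.42 and 0.41, in that order, and all 21 genes kept their direction. Of all expressed genes 10.9%, 10.6% and 10.1% were then at least 1.5-fold higher, and 6.46%, 6.81% and 7.07% lower. Subtracting the length group median gave 3 genes at least 1.5-fold higher (8.6% of all genes), a median of 0.24, and 1 gene (Glrx) in the other direction. At 2-fold, 0 genes were higher and 0 lower, against 2.73% and 1.94% of all expressed genes. At 1 CPM in 1 library, 30 of the 43 genes were left, with 6 higher, 4 lower and a median of 0.27; of all genes 18.5% were then higher and 16.5% lower, so these counts are near the background. With no filter, 40 genes were left, with 9 higher, 8 lower, 26 above the median and a median of 0.23; of all genes 24.9% were then at least 1.5-fold higher and 27.8% lower. The mean of the 21 genes was 0.29. The following alternatives were chosen after seeing the data. Adding the counts of copies to Sod1, Prdx1, Prdx2 and Gstp1 turned no direction. Leaving out genes with over 20% shared sequence left 17 genes, with 3 higher (Gstm5, Mgst3 and Txn2) and Txnrd1 lower. Of all expressed genes, with none left out for shared sequence, 10.3% were higher and 7.16% lower. Requiring 10 CPM in both libraries left 19 genes with 5 higher and 1 lower (7.57% and 4.84% of all genes).

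Depth limits the genes under 10 CPM, where ratios of all genes spread widely. No paired analysis was possible because each group had 1 library and the labels carry no replicate numbers.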
